A study of Mus musculus with 52 samples.

Results

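The nucleus accumbens, a reward centre at the base of the striatum, was compared between mice infused with insulin at the low rate and mice infused with saline. Libraries were chosen by their titles, which gave 6 low and 6 basal (saline) libraries, 12 of the 52 in the series. All groups used here were 3-month-old male C57BL/6J mice, an inbred laboratory strain, with a catheter in the jugular vein. They were awake and received saline or insulin for 3 h, at 4 mU/kg/min in the low group and 12 mU/kg/min in the high group, while infused glucose was adjusted to their blood glucose (a clamp). The high group of the accumbens (6 libraries) and the low and basal libraries of the hypothalamus (11) and hippocampus (12) serve only as comparisons. The labels do not tie the libraries to separate animals, so every p-value here reflects only how far libraries of a group lie apart, which may be technical.

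The accumbens is built mostly of inhibitory projection neurons that carry D1 or D2 dopamine receptors, and it helps assign value to food and other rewards. Insulin crosses into the brain and binds the insulin receptor on neurons, glia and vessels. The receptor acts through adaptor proteins on the PI3K and AKT kinases, which keep FOXO transcription factors out of the nucleus and activate mTOR. Classical insulin-responsive transcripts in other organs include those of sterol and fatty acid synthesis, which are induced, and of fasting, which are repressed.

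At the low rate of insulin, 0 of 13769 genes tested in the accumbens differed from saline (0% called) by edgeR's quasi-likelihood test at a Benjamini-Hochberg adjusted p under 0.05. The adjusted p was 1.00 for each gene named here. DESeq2 and limma-voom also called 0 genes (0% of those each tested). An unadjusted p under 0.05 was found for 196 genes (1.42%), of which 117 (0.85%) had a log2 fold change (low minus basal) above 0 and 79 (0.574%) below it. At that threshold DESeq2 counted 263 of 28708 genes (0.916%) and limma-voom 193 (1.4%). An even spread of p-values would put 688 genes there, so small p-values were fewer than an even spread gives. In the hippocampus 817 genes (6.05%) and in the hypothalamus 4221 genes (29.9%) had an unadjusted p under 0.05 for the same contrast.

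**Figure D1:**
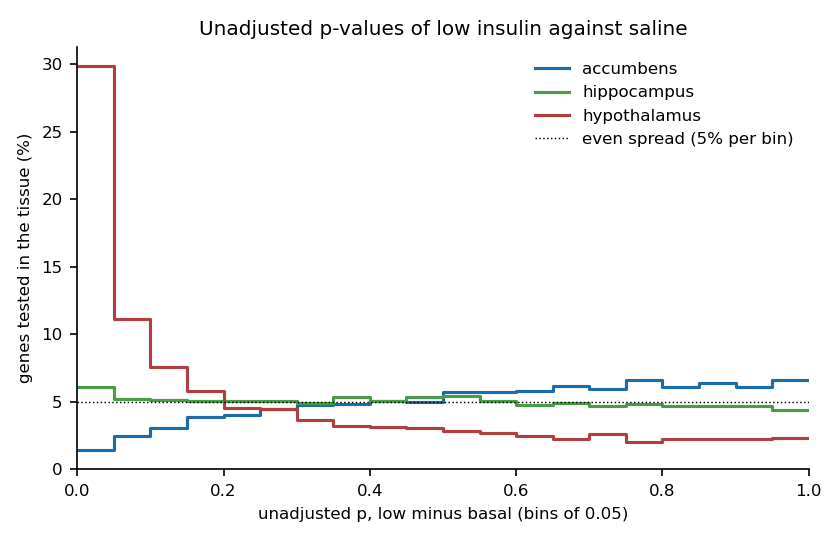
Share of genes tested (y axis, %) by unadjusted p of low minus basal (x axis, bins of 0.05) in the accumbens, hippocampus and hypothalamus, with a dotted line at an even spread. The first bin holds 1.42% of genes in the accumbens, 6.05% in the hippocampus and 29.9% in the hypothalamus.

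The size of difference these libraries could show was set by the standard errors, whose median was 0.17 on the log2 scale. Total counts per library ran from 3423230 to 7258565 in the basal group and from 2740097 to 7299116 in the low group. The 95% interval of the fold change lay within 2-fold in either direction for 12945 genes (94.0%) and within 1.5-fold for 9746 genes (70.8%). Standard errors were largest for weakly expressed genes. With a mean of 1 to 5 CPM (counts scaled to a common library size) the median standard error was 0.30, whereas it was 0.13 for genes at 100 CPM and over. The interval lay within 1.5-fold for 200 of 2069 genes at 1 to 5 CPM (9.67%).

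The labelled tissue was checked with marker genes. Drd1, the D1 dopamine receptor gene, lay between 159 and 390 CPM in all 12 libraries, and Penk, the enkephalin precursor of D2-type projection neurons, between 523 and 1214 CPM. Markers of neighbouring cortex varied widely. Slc17a7, the vesicular glutamate transporter of cortical pyramidal neurons, stood at 271, 50.6, 730, 1.63, 1.91 and 17.1 CPM in basal libraries 1 to 6 and at 114, 206, 3.75, 559, 2.46 and 3.94 CPM in low libraries 1 to 6. Above 100 CPM lay 2 basal and 3 low libraries, so the groups overlapped fully. In a bulk sample, more cells of a type and more RNA per cell cannot be told apart. One library in each group (replicate 1) leaned to GC-rich transcripts, with a Spearman correlation above 0.4. Other libraries leaned the opposite way, with basal replicate 2 at -0.56 and low replicate 5 at -0.43. With the libraries above 100 CPM of Slc17a7 left out, or with the GC-leaning ones (above 0.4) left out, 0 genes were called. The second setting kept the libraries that leaned the opposite way.

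The genes nearest to the threshold were described by a fixed rule, the 6 smallest p in each direction among genes with a mean of at least 5 CPM. None of them passed, and no common function was tested. Among genes with higher values at the low rate, Lyrm2 encodes a small mitochondrial protein of the LYR family (chromosome 4, 32800253 to 32801559, plus strand, GRCm38). It stood at 8.34 to 15.8 CPM in the basal libraries (median 13.6) and 14.9 to 33.2 in the low libraries (median 17.7). The log2 fold change was 0.67 with a standard error of 0.20. The highest value came from low replicate 1, and 5 of 6 low libraries were above every basal library. Without the libraries above 100 CPM of Slc17a7 the log2 fold change of Lyrm2 was 0.27.

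Ccdc159, a coiled-coil protein gene (chromosome 9, 21927471 to 21935872, plus strand), was one of 2 genes (0.0145% of those tested) with every low library above every basal library. It ranged from 10.2 to 13.4 CPM (median 11.6) with saline and from 13.5 to 18.0 CPM (median 14.4) at the low rate. Its log2 fold change was 0.41 with a standard error of 0.13. The high libraries ranged from 10.7 to 13.6 CPM and overlapped the basal ones. Groups did not overlap for 6 genes in all (0.0436%), 2 above and 4 below. Among so many tested genes some separate by chance, so separation by itself marks no difference. The other gene above, Insm1, a zinc finger factor of neuroendocrine and newborn neurons, averaged 7.97 ± 0.76 CPM in the basal and 9.40 ± 0.47 CPM in the low libraries (SD, n = 6 each).

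Cth encodes cystathionine gamma-lyase, which makes cysteine from cystathionine. It ranged from 5.96 to 8.49 CPM (median 6.25) in the basal and from 8.24 to 14.5 CPM (median 9.62) in the low libraries, with a log2 fold change of 0.58 and a standard error of 0.19. Only the ends of the ranges overlapped. Sox9, a transcription factor of astrocytes, ranged from 46.7 to 75.2 CPM (median 61.3) with saline and from 61.7 to 88.3 CPM (median 78.8) with insulin, a log2 fold change of 0.36 with a standard error of 0.12. The other astrocyte genes did not share that size, since the median over 13 astrocyte genes was 0.06. Pcdhgb4, a gamma protocadherin, had a log2 fold change of 0.53; its exons are partly shared with the other genes of its cluster, so its counts are uncertain. BC031181 had a log2 fold change of 0.39, which was 0.04 without the libraries above 100 CPM of Slc17a7.

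**Figure D2:**
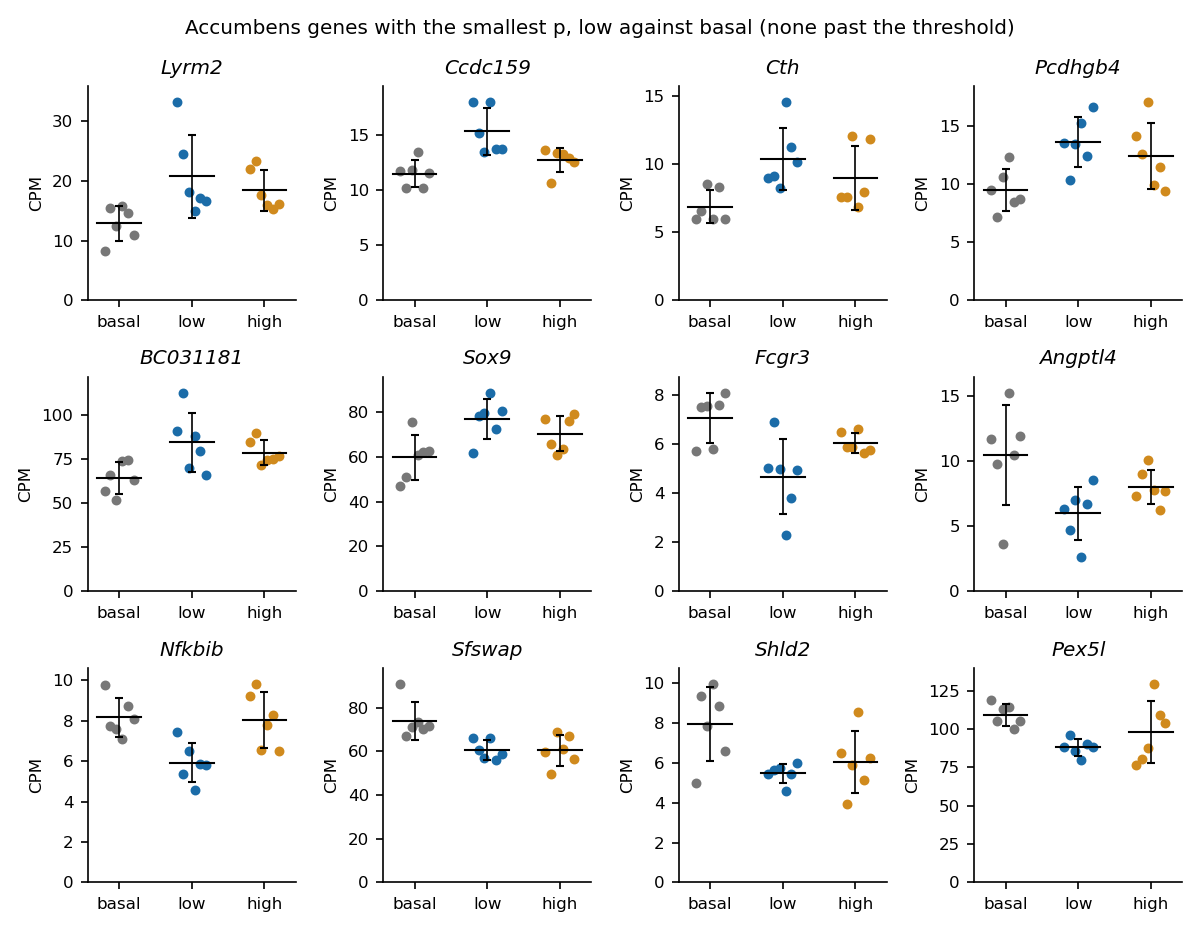
CPM (y axis, linear from 0) of the 12 genes with the smallest p in either direction in basal, low and high accumbens libraries (points, 6 per group), with mean and SD. None passed the threshold, and in 3 of the 12 panels (Ccdc159, Sfswap and Pex5l) the basal and low points do not overlap.

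Among genes with lower values at the low rate, Angptl4 has a known tie to fasting. It encodes a secreted inhibitor of lipoprotein lipase that fasting induces in fat and liver (chromosome 17, 33773750 to 33781830, minus strand). The basal libraries stood at 3.64 to 15.2 CPM (median 11.1) and the low libraries at 2.68 to 8.56 CPM (median 6.52). Apart from basal replicate 3, at 3.64 CPM, every basal library was above every low library. The log2 fold change was -0.77 with a standard error of 0.25 and a 95% interval from -1.29 to -0.25. Angptl4 is also on the list of glucocorticoid-responsive genes. That list had a median of -0.04 over 20 tested genes, with 9 above 0 and 11 below.

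Basal replicate 3 and low replicate 4, the lowest library of each group for Angptl4, were also the highest of each group for Slc17a7. Without the libraries above 100 CPM of Slc17a7 the log2 fold change of Angptl4 was -0.68. In the hypothalamus Angptl4 fell by 1.11 on the log2 scale (edgeR adjusted p = 0.0101), and in the hippocampus its log2 fold change was -0.41. The difference between accumbens and hypothalamus was 0.35 with a standard error of 0.34 (edgeR adjusted p = 0.62). At the high rate in the accumbens the log2 fold change of Angptl4 against the same basal libraries was -0.41.

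Fcgr3, an Fc receptor of microglia and other myeloid cells, ranged from 5.72 to 8.10 CPM (median 7.56) with saline and from 2.29 to 6.93 CPM (median 4.98) at the low rate. Its log2 fold change was -0.59 with a standard error of 0.19. The microglial genes as a list had a median of 0.08, with 8 of 11 above 0, and it was -0.11 with 5 of 11 above 0 without the libraries above 100 CPM of Slc17a7 and -0.01 without basal replicate 3. Nfkbib, an inhibitor of NF-kappaB, had a log2 fold change of -0.45, and Shld2, a DNA repair factor of the shieldin complex, one of -0.53.

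All low libraries lay below all basal libraries for 4 genes (0.0291% of those tested). Pex5l encodes TRIP8b, which controls the traffic of HCN channels in neurons. It ranged from 99.8 to 119 CPM (median 109) with saline and from 79.9 to 96.4 CPM (median 88.5) at the low rate. The log2 fold change was -0.31 with a standard error of 0.11, the reverse in sign of the hypothalamic value of 0.77. Sfswap, a splicing regulator, ranged from 67.1 to 90.8 CPM (median 71.2) and from 55.9 to 66.2 CPM (median 59.5), with a log2 fold change of -0.29 and a standard error of 0.10. Odf2, a centriole protein gene, and Galnt4, a glycosyltransferase gene, had log2 fold changes of -0.23 and -0.37. Odf2, Galnt4 and Insm1 are named for their separation, outside the naming rule, with their values known.

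The insulin pathway itself was described from lists of genes. Of 21 tested genes for insulin and IGF receptors, ligands, binding proteins and adaptors, 0 were called, 12 had a log2 fold change above 0 and 9 below, and the median was 0.06. Over all genes tested, 6996 (50.8%) were above 0 and the median was 0.00. Insr, the insulin receptor gene (chromosome 8, 3122061 to 3279617, minus strand), ranged from 128 to 151 CPM (median 140) with saline and from 113 to 171 CPM (median 127) at the low rate. The low libraries spread wider and covered the whole basal range. Its log2 fold change was -0.07 with a standard error of 0.13 and a 95% interval from -0.34 to 0.21.

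Igf1r, the IGF-1 receptor gene, averaged 49.0 ± 3.82 CPM in the basal and 49.0 ± 10.1 CPM in the low libraries (SD, n = 6 each). The adaptor genes Irs1 and Irs2 had log2 fold changes of -0.09 and 0.17 with standard errors of 0.21 and 0.15. Irs2 is strongly insulin-repressed in liver. The adaptor Sh2b2, which binds the activated receptor, was the only one of the list with an unadjusted p under 0.05, at 12.9 ± 3.25 CPM with saline and 8.39 ± 3.92 CPM at the low rate (SD, n = 6 each). Its log2 fold change was -0.56, and its ranges of 7.13 to 16.7 and 1.91 to 13.1 CPM overlapped.

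Downstream of the receptor, the 32 tested genes of the PI3K, AKT and RAS arms had a median log2 fold change of 0.04. Their values lay between -0.20 and 0.29, 0 had an unadjusted p under 0.05, and the 95% interval of 31 of 32 lay within 1.5-fold in either direction. The largest in size was Spry2, an inhibitor of RAS signalling, at 0.29 with a standard error of 0.20. Akt2, the AKT kinase of insulin signalling, had a log2 fold change of 0.23 with a standard error of 0.16. The 18 tested genes of the mTOR complexes had a median of -0.02 and 0 calls; Sgk1, an mTORC2-dependent kinase, had -0.25, and Deptor, an mTOR inhibitor, -0.26.

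The FOXO factors and fasting-responsive genes had a median of 0.00 over 24 tested genes, with 14 above 0 and 10 below, and 0 were called. Foxo1 ranged from 72.0 to 110 CPM (median 85.9) with saline and from 74.4 to 161 CPM (median 113) at the low rate, a log2 fold change of 0.42 with a standard error of 0.19. Foxo3 had a log2 fold change of 0.25. Txnip, an inhibitor of glucose uptake whose transcript follows glucose, ranged from 26.7 to 38.9 CPM (median 35.9) and from 19.5 to 45.9 CPM (median 28.9). Its log2 fold change was -0.18 with a 95% interval from -0.53 to 0.16.

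Sterol genes gave small values. Insig1, which holds the sterol sensor SCAP in the endoplasmic reticulum and is an insulin target in liver, ranged from 53.9 to 76.1 CPM (median 61.6) with saline and from 50.7 to 90.7 CPM (median 65.3) with insulin. The lowest and the highest of the 12 values were both from low libraries. The log2 fold change was 0.12 with a standard error of 0.14 and a 95% interval from -0.16 to 0.40. Over 20 cholesterol synthesis genes the median was 0.06, with 14 above 0, 6 below and 0 called. Mvd, which makes isopentenyl pyrophosphate, had a log2 fold change of 0.48 (5.31 to 10.9 against 10.1 to 13.4 CPM), so only the ends of the ranges overlapped. The median over 18 fatty acid synthesis genes was 0.04. Without the libraries above 100 CPM of Slc17a7 it was 0.07, with 16 of 18 above 0. For cholesterol synthesis that setting gave 0.10, with 16 of 20 above 0. Without low replicate 5 the medians were -0.01 for fatty acid and 0.01 for cholesterol synthesis.

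Medians of energy and biosynthesis genes were also near 0. All 20 glycolytic genes had 95% intervals within 1.5-fold in either direction, with a median of -0.02. The median was -0.03 over 27 respiratory chain genes, -0.01 over 49 cytosolic ribosomal protein genes and -0.08 over 14 genes of glucose transport. The ribosomal median was 0.09, with 37 of 49 above 0, without the libraries above 100 CPM of Slc17a7. Single members lay farther out: mt-Co2, a mitochondrially encoded subunit of cytochrome oxidase, ranged from 8.79 to 81.4 CPM (median 29.1) with saline and from 8.97 to 51.2 CPM (median 20.7) at the low rate, a log2 fold change of -0.76 with a standard error of 0.56. Slc2a3, the neuronal glucose transporter, averaged 246 ± 35.6 CPM with saline and 273 ± 27.3 CPM at the low rate (SD, n = 6 each). Slc2a4, the insulin-regulated transporter of muscle and fat, averaged 5.19 ± 2.06 and 4.20 ± 0.99 CPM.

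**Figure D3:**
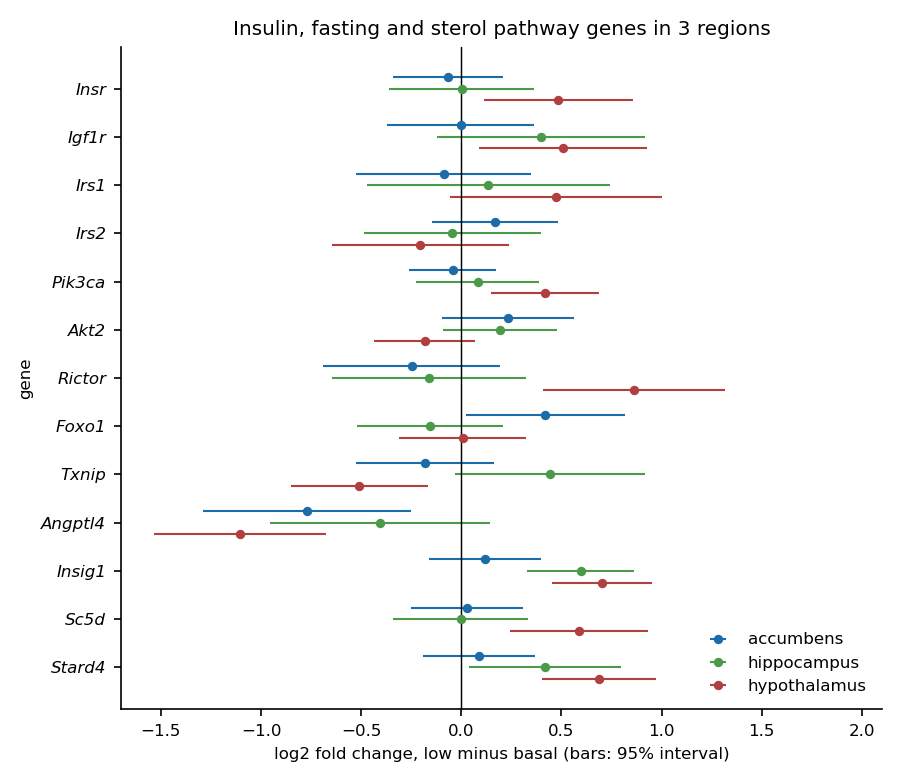
Log2 fold change of low minus basal (x axis, points, with 95% intervals) of 13 genes of insulin signalling, fasting and sterol metabolism (y axis) in the accumbens, hippocampus and hypothalamus. The genes were picked with their values in view; 11 of the 13 accumbens intervals cover 0, the exceptions being Foxo1 and Angptl4, and no accumbens gene passed the threshold.

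Fold changes of dopamine signalling genes were mostly above 0, and none was called. Of 18 tested genes 17 had a log2 fold change above 0, the median was 0.27, and 0 had an unadjusted p under 0.05. Drd1 ranged from 194 to 346 CPM (median 210) with saline and from 159 to 390 CPM (median 324) at the low rate. The lowest low library lay below every basal library, and the others lay at 287 CPM or more. The log2 fold change was 0.37 with a standard error of 0.22 and a 95% interval from -0.09 to 0.84. Drd2, the D2 receptor gene, had 0.33 with a standard error of 0.21. Pde10a, the phosphodiesterase of striatal projection neurons, had 0.45 with a standard error of 0.25, and Ppp1r1b, which encodes the dopamine-regulated phosphoprotein DARPP-32, had 0.17.

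Genes that mark striatal projection neurons gave a like picture, and Adora2a belongs to both lists. Of 20 tested, 19 were above 0, the median was 0.26, and 0 were called. Penk ranged from 578 to 868 CPM (median 692) and from 523 to 1214 CPM (median 950), a log2 fold change of 0.35 with a standard error of 0.17. Tac1, the substance P precursor of D1-type neurons, ranged from 81.0 to 297 CPM (median 121) and from 109 to 333 CPM (median 180), a log2 fold change of 0.47 with a standard error of 0.33. Pdyn, the dynorphin precursor, had 0.27. Gpr6, a receptor of D2-type neurons, and Rarb, a retinoic acid receptor of the striatum, had 0.50 and 0.47 and an unadjusted edgeR p of 0.026 and 0.041. The groups overlapped for each gene of both lists.

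The members of these lists were measured in the same libraries, so their values are not independent of each other. How far they varied together was not tested. Summed over the projection neuron list, basal libraries 1 to 6 held 2943, 4126, 3410, 3074, 2959 and 2639 CPM. Low libraries 1 to 6 held 4424, 4089, 4138, 4066, 2409 and 3816 CPM. Low replicate 5 was the lowest of the 12, basal replicate 2 stood among the other low libraries, and the remaining basal libraries lay below them. Without low replicate 5 the median log2 fold change of the list was 0.36, without basal replicate 2 it was 0.36, and without the libraries above 100 CPM of Slc17a7 it was 0.12. For the dopamine list that last value was 0.15, with 14 of 18 genes above 0, and without low replicate 5 it was 0.40. Drd1 had 0.15 and Tac1 -0.10 without those libraries. The high group, compared with the same basal libraries, had medians of 0.21 for projection neuron genes and 0.19 for dopamine genes.

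Oligodendrocyte genes lay on the other side of 0. Of 14 tested, 13 were below 0, the median was -0.12 and 0 were called or had an unadjusted p under 0.05. Mbp, the myelin basic protein gene, averaged 2544 ± 407 CPM with saline and 2257 ± 321 CPM at the low rate (SD, n = 6 each). The summed level ran from 5022 to 7562 CPM in the basal and from 5148 to 6961 CPM in the low libraries. Basal replicate 3, the library with the most Slc17a7, was the lowest of the basal and low libraries, and without it the list's median was -0.21. Without basal replicate 1, basal replicate 4 or low replicate 4 it was -0.07 each. Whether the share of white matter in the dissection differed was not tested. For oligodendrocyte precursors 7 of 8 genes were below 0, with a median of -0.09.

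Immediate early genes, which neuronal activity induces within minutes to hours, varied strongly between libraries. Of 29 tested, 21 were above 0, the median was 0.14 and 0 were called. Egr2 ranged from 0.853 to 4.85 CPM (median 2.64) with saline and from 1.5 to 11.7 CPM (median 6.32) at the low rate, a log2 fold change of 1.21 with a 95% interval from 0.11 to 2.30. Egr1 ranged from 68.9 to 169 CPM (median 88.2) and from 56.3 to 283 CPM (median 123), a log2 fold change of 0.56 with a standard error of 0.35. Fos itself had -0.02. Basal replicate 3, with 1314 CPM summed over the list, and low replicate 4, with 1643 CPM, were the highest of their groups and are the 2 libraries with the most Slc17a7 in those groups. Whether cortical tissue contributed was not tested. Without low replicate 4 the list's median was 0.04, and without basal replicate 3 it was 0.34. Without the libraries above 100 CPM of Slc17a7 it was 0.13, with 22 of 29 genes above 0. With the mean level of the cortical list as a covariate it was 0.19, with 23 of 29 above 0.

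**Figure D4:**
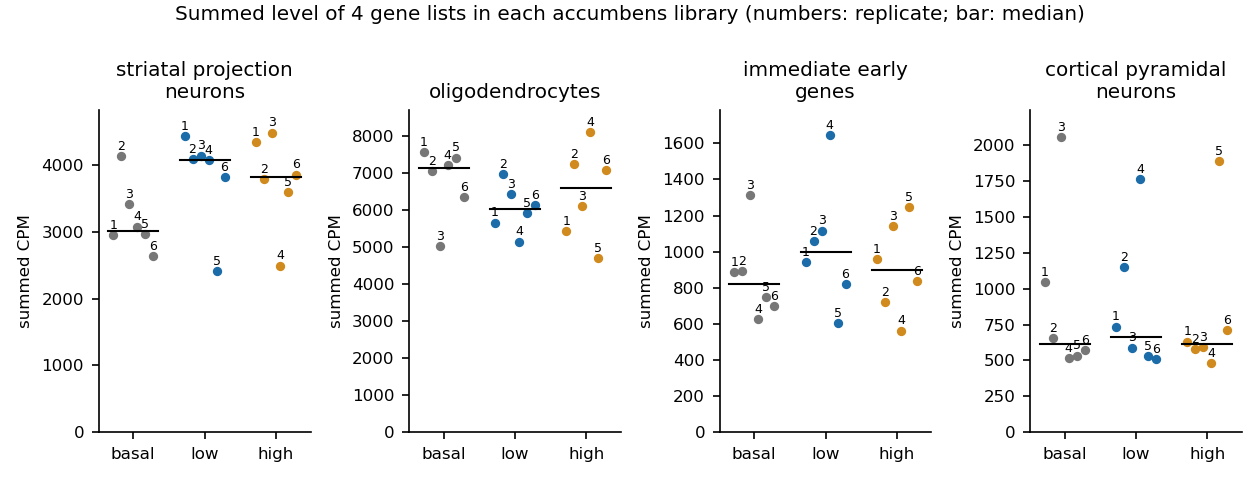
Summed CPM (y axes, linear from 0) of 4 gene lists in each accumbens library (points numbered by replicate, 6 per group, bar at the median). Low replicate 5 is the lowest of the basal and low libraries for projection neuron genes, at 2409 CPM. Among the basal and low libraries, basal replicate 3 and low replicate 4 hold the most of the cortical genes, at 2054 and 1763 CPM. High replicate 5 holds 1886 CPM.

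Other lists also gave 0 called genes. The unfolded protein response had a median of 0.10 with 22 of 25 genes above 0, and of 0.06 with 16 of 25 above 0 without basal replicate 3. Without the libraries above 100 CPM of Slc17a7 it was 0.06 with 19 of 26 above 0. Dnajb11, a chaperone of the endoplasmic reticulum, had 0.26 with a standard error of 0.13, and Hspa5, the chaperone BiP, had 0.14. Neurotrophins and their receptors had a median of 0.13 with 9 of 10 above 0; Gdnf, at 2.18 ± 0.65 and 3.40 ± 0.94 CPM (SD, n = 6 each), had 0.61, and Ntrk2, the BDNF receptor gene, had 0.09. The circadian clock list had a median of 0.03; Per2 had 0.32 (43.4 to 69.1 against 55.0 to 74.2 CPM). Ion channels of both lists had medians of 0.01 (potassium and HCN) and 0.04 (sodium and calcium).

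The 5 tested genes of midbrain dopamine neurons had a median of -0.26. Th, the rate-limiting enzyme of dopamine synthesis, stood at 11.0 to 21.2 CPM (median 16.1) with saline and 5.04 to 15.7 CPM (median 10.4) at the low rate, a log2 fold change of -0.57 with a standard error of 0.26. It was -0.10 without the libraries above 100 CPM of Slc17a7. The genes Slc6a3 and Pitx3 of this list were too weakly counted to be tested. Dopamine axons in the accumbens carry little Th transcript, since their cell bodies lie in the midbrain.

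**Figure D5:**
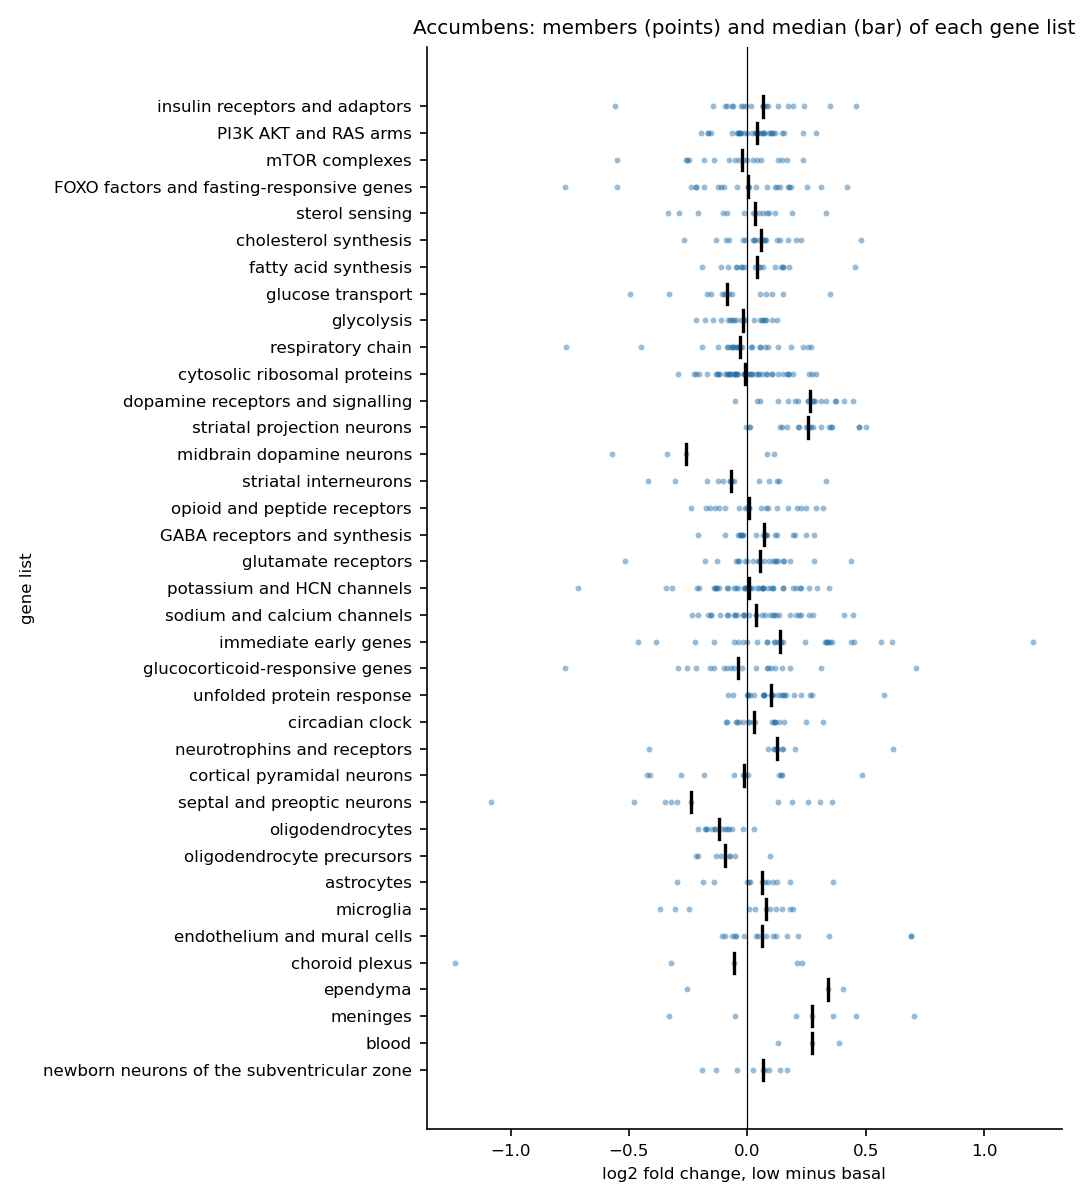
Log2 fold change of low minus basal (x axis) of the members (points) of the 37 gene lists (y axis), with a bar at each list's median. The dopamine and projection neuron lists stand at medians of 0.27 and 0.26 and the oligodendrocyte list at -0.12, while the PI3K, AKT and RAS list and glycolysis lie within 0.29 of 0 for all members. Other medians also lie off 0: ependyma 0.34 (3 genes), blood 0.27 (3 genes) and meninges 0.27 (7 genes). Below 0 stand midbrain dopamine neurons at -0.26 (5 genes) and septal and preoptic neurons at -0.24 (11 genes). Leaving out 1 library moved these medians. Blood was -0.11 without low replicate 3, meninges -0.34 without low replicate 1 and ependyma 0.08 without basal replicate 3. Septal and preoptic neurons were at -0.01 without basal replicate 5, and midbrain dopamine neurons at -0.21 without basal replicate 3.

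The rate of insulin made no called difference within the accumbens. High minus low gave 0 calls of 13769 genes by edgeR (292, or 2.12%, with an unadjusted p under 0.05), and DESeq2 and limma-voom also called 0 (397, or 1.38%, and 280, or 2.03%, unadjusted). High minus basal gave 0 calls (326, or 2.37%, unadjusted). The smallest p above 0 belonged to Ttn, Ppfibp2 and Wdr55. Ppfibp2, a liprin of cell adhesion sites, averaged 12.8 ± 2.80 CPM with saline, 9.15 ± 2.44 at the low rate and 14.4 ± 2.53 at the high rate (SD, n = 6 each). The mean of the low group was thus below both others, though its libraries overlapped the basal ones. The smallest p below 0 belonged to Fndc3b, Eif4ebp2 and Cfap65. Eif4ebp2, a translation repressor that mTOR phosphorylates, averaged 22.9 ± 3.43 CPM at the low rate and 16.9 ± 2.72 at the high rate, a log2 difference of -0.44 with a standard error of 0.14 (edgeR adjusted p = 1.00).

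The accumbens was then set beside the hypothalamus, where 760 of 14139 genes (5.38%) were called for the same contrast. Sample titles carry running tag numbers of unstated meaning. Each run of neighbouring numbers with accumbens libraries held both a basal and a low one. In the hypothalamus some runs held a low library without a basal one, or the reverse. How far this bears on the hypothalamic calls was not tested. The median size of the log2 fold change was 0.09 in the accumbens, 0.14 in the hippocampus and 0.27 in the hypothalamus, at median standard errors of 0.17, 0.19 and 0.18. Of 508 genes that were higher with insulin in the hypothalamus, 496 were tested in the accumbens, where 151 were above 0 and 345 below, with a median of -0.07. The accumbens interval excluded the hypothalamic value for 470 of them (94.8%). Of 252 genes that were lower there, 235 were tested in the accumbens, with a median of -0.03, and the interval excluded the hypothalamic value for 209 (88.9%). The hypothalamic values were selected for size, so these shares describe the intervals and are no test of a difference.

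The test of the difference itself, tissue by infusion in 1 model of all 52 libraries, called 0 of 14985 genes between accumbens and hypothalamus by edgeR, with 2107 (14.1%) at an unadjusted p under 0.05. Limma-voom called 0 (2186, or 14.6%, unadjusted). DESeq2 called 6 of 16975 (0.0353%) with an adjusted p, and 2389 of 31749 (7.52%) had an unadjusted p under 0.05. The 6 were Pex5l, Akap10, Lcor, A330015K06Rik and Gm37776 with a difference below 0 and Gpatch1 with one above 0. Without low replicate 2 of the accumbens edgeR called 46, of which 2 were above 0 and 44 below. Akap10, a kinase A anchor protein gene, had a log2 fold change of -0.18 in the accumbens and 1.06 in the hypothalamus, a difference of -1.21 with a standard error of 0.24 (edgeR adjusted p = 0.13). For Pex5l the difference was -1.05 with a standard error of 0.24 (edgeR adjusted p = 0.14). Insig1 had 0.12 and 0.70, a difference of -0.56 with a standard error of 0.18 (edgeR adjusted p = 0.22).

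Between accumbens and hippocampus the same model called 0 of 14985 genes by edgeR (790, or 5.27%, unadjusted) and 0 by limma-voom (712, or 4.75%, unadjusted), and DESeq2 called 4 of 13283 (0.0301%) with an adjusted p, while 978 of 31749 (3.08%) had an unadjusted p under 0.05. The 4 were Mal, Ppfibp2, Efhd1 and Sh2b2, all with a difference below 0. Sh2b2 is also named above, from the list of insulin receptors and adaptors. Mal, a myelin protein gene, had a log2 fold change of -0.18 in the accumbens and 0.89 in the hippocampus, a difference of -1.06 with a standard error of 0.23 (edgeR adjusted p = 0.19). The oligodendrocyte list, to which Mal belongs, had a median of 0.89 in the hippocampus.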

How the data were processed

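RNA of the nucleus accumbens (18 libraries), hypothalamus and hippocampus was sequenced from stranded libraries, per the labels. The authors deposited read counts per Ensembl gene in 1 table with no normalization; per the submitters' processing notes STAR, featureCounts and the build GRCm38.p4 were used. The sources used here give no versions, strand setting or annotation release for these steps, so antisense and overlapping genes are uncertain. Of 46071 identifiers 45229 had a GENCODE M21 symbol, and the 842 others held 0.084% of counts.

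The 18 accumbens libraries were fitted together in edgeR 4.0.16 (R 4.3.3) with TMM scaling, filterByExpr and a robust quasi-likelihood model, 2-sided, with Benjamini-Hochberg adjustment over all genes. CPM values use TMM-scaled library sizes. Differences between regions came from 1 model of 52 libraries, which takes them as independent. All 30 pairs of libraries within a group differed beyond sampling noise (chi-square per gene 3.46 to 20.9). Alternatives were DESeq2 1.42.0, limma-voom (limma 3.58.1), DESeq2 size factors, no filter, other covariates, a threshold of 0.1 and leaving out libraries; leaving out those rich in Slc17a7 (above 100 CPM) or leaning to GC-rich transcripts (above 0.4) was added after seeing the data. Named genes were the 6 smallest p per direction at a mean of at least 5 CPM where none was called, up to 4 members of each of 37 lists with the smallest p, fixed pathway and marker genes, and 3 per direction for each difference. The text prints only part of the list members, and some genes are not reported here. Members and lists were chosen with earlier results of these data known.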

Additional observations from a re-analysis of the deposited data

Results flagged for a closer look

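Single libraries far from the other 5 of their group were looked for in 50 groups of named genes, where chance flags about 1 in 20. Slc17a7 stood at 730 CPM in basal replicate 3, against 1.63 to 271 CPM in the other basal libraries, and at 559 CPM in low replicate 4, against 2.46 to 206 CPM in the other low libraries. Sfswap stood at 90.8 CPM in basal replicate 1, against 67.1 to 73.3 CPM in the others, and the groups did not overlap with or without that library. Shld2 stood at 4.59 CPM in low replicate 4, against 5.47 to 5.99 CPM in the others.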

How the results depend on the processing

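Low minus basal gave 0 called genes under each of the 25 alternatives run, with 149 to 772 genes at an unadjusted p under 0.05; the highest count had no filter on low counts. Among the fits without 1 library the count ran from 149 to 417, the highest without low replicate 5. With the run of neighbouring tag numbers as a block, 0 genes were called and 279 had an unadjusted p under 0.05; libraries of a run deviated together in 4 of 6 runs (correlation above 0.1; range -0.16 to 0.52), and 4 of 6 low libraries correlated best with the basal library of their run, so it is uncertain whether the runs pair them. Of 3908 values of 163 named genes under alternatives, 0 passed the threshold, 63 moved by more than 1 standard error, and 0 changed sign where the main interval excluded 0. The median of 21 of the 37 gene lists changed sign under at least 1 alternative, and that of 16 did not. The 16 include the dopamine, projection neuron, oligodendrocyte and immediate early gene lists. The alternatives reuse largely the same libraries, so a kept sign is no independent test. Between accumbens and hypothalamus 0 calls became 6 with DESeq2, and 0 to 46 without 1 library each; between accumbens and hippocampus DESeq2 gave 4. The cause was not tested. At 1 to 5 CPM 9.67% of genes had an interval within 1.5-fold, which reflects depth and the spread between libraries together.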

Other observations

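Cell types and signalling groups outside the comparisons above also gave 0 called genes at the low rate. The 16 tested genes of endothelium and mural cells had a median log2 fold change of 0.06, and of -0.03 without the libraries above 100 CPM of Slc17a7. Tagln and Acta2, contractile genes of vascular smooth muscle, had 0.69 each with standard errors of 0.38 and 0.46. Tagln reached 20.3 CPM in a low library and at most 6.67 CPM in the basal libraries. Meningeal genes had a median of 0.27 over 7 genes, which turned to -0.34 without low replicate 1, to -0.38 without the GC-leaning libraries and to -0.14 without the libraries above 100 CPM of Slc17a7. Low replicate 1 held 1250 CPM summed over the list, and the other low libraries between 360 and 703 CPM. Igf2, a growth factor of meninges and choroid plexus, ranged from 12.9 to 46.1 CPM in the basal and from 18.9 to 57.1 CPM in the low libraries.

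Peptide genes of neighbouring septal and preoptic tissue varied between libraries. Oxt, the oxytocin precursor, lay between 0 and 25.1 CPM with saline and between 0 and 18.6 CPM at the low rate. Nts, the neurotensin precursor, which some accumbens neurons also make, had medians of 43.0 and 51.4 CPM. The interneuron list had a median of -0.07 that turned to 0.01 without low replicate 2 and 0.02 without basal replicate 6, and within it Sst, the somatostatin gene, averaged 97.4 ± 27.2 and 86.5 ± 9.21 CPM (SD, n = 6 each). GABA receptor and synthesis genes had a median of 0.07 and glutamate receptor genes one of 0.05; Homer1, a postsynaptic scaffold gene that activity also induces, had 0.44 with a standard error of 0.29. Newborn neuron genes had a median of 0.06.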
